A study of Homo sapiens with 10 samples.

Results

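The genes described here encode the human methyltransferases of histone H3 lysine 9 (H3K9) and the partners of the G9a complex. They are EHMT1, EHMT2, WIZ, ZNF644, SUV39H1, SUV39H2, SETDB1, SETDB2, ATF7IP and CDYL, taken by their symbols in the count table. All 10 were found among its 60651 gene rows, and all 10 were among the 22495 genes with enough counts to be tested. RNA was sequenced from 10 libraries of 2 established human cell lines, 2 libraries in each of 5 groups. HT29 is a colorectal cancer line and t-hESC a line of transformed human pluripotent stem cells, per the labels, so each stands for a single cell source. The groups were DMSO, the solvent, and VXN at 10 µM in each line, with BIX at 1 µM in t-hESC as well; the labels expand neither compound name. The treatment field of the labels gives 48 hours of DMSO for every sample, so the compounds were taken from the sample titles and the time from that field.

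Methylation of H3K9 marks silent chromatin. EHMT2 (G9a) and EHMT1 (GLP) form a heterodimer that places mono- and dimethyl groups on H3K9, mostly in euchromatin, and the zinc finger proteins WIZ and ZNF644 bind the dimer and help bring it to chromatin. SUV39H1 and SUV39H2 trimethylate H3K9 in pericentromeric heterochromatin, where HP1 proteins read the mark. SETDB1 trimethylates H3K9 at retroelements after recruitment by TRIM28 and zinc finger proteins, and ATF7IP stabilises it in the nucleus. SETDB2 is a less studied relative of SETDB1, and CDYL is a chromodomain protein that binds methylated H3K9 and associates with G9a. The series title names H3K9 dimethylation as what the compounds were meant to alter. Transcripts were measured in these libraries, not the mark.

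Total gene counts ran from 13137026 to 24492838 per library, and the 10 genes had between 154 and 4325 counts in each library, so none was near the limit of 3 counts that a count of 0 allows. Levels are given as CPM, counts scaled to a common library size by TMM, and were not compared between genes because no transcript length was available. Pluripotency markers summed to between 4963 and 5624 CPM in the 6 t-hESC libraries and to between 11.9 and 16.1 CPM in the 4 HT29 libraries. Colon epithelial markers summed to between 4193 and 4919 CPM in HT29 and to between 351 and 427 CPM in t-hESC, where CDX2 and CEACAM5 had at most 3 counts in any library. By these sums both marker lists matched the labelled line in all 10 libraries. KRT18 was the largest part of the colon sum, at 3223 ± 14 CPM in HT29 under DMSO (SD, n = 2). Not every colon marker told the lines apart. CDH17 was at 0.272 ± 0.023 CPM in HT29 under DMSO and at 0.399 ± 0.15 CPM in t-hESC under BIX. CDX2 was low in HT29 too, at 1.68 ± 0.076 CPM under DMSO. The replicates of a group differed little (common biological coefficient of variation 0.021). The series describes them as biological replicates, with no word on separate cultures, so each p-value reflects library-to-library spread alone.

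Promoters are printed for the 4 genes on which the results turn, since the SUV39H pair fell most and the EHMT pair encodes the enzymes of the mark that the series title names. Each is the RefSeq window (GRCh38.p14) from 250 bases before to 50 bases after a transcript start, 5′ to 3′ on the strand of the gene. Capitals mark the motifs searched for on both strands, which were GGGCGG (the GC box), the box with the letters CCAAT, the E2F words TTTCCCGC and TTTGGCGC, the ETS word CCGGAAGT and the palindromic NRF1 motif. SUV39H1 is at chrX:48696484-48696783 on the plus strand, SUV39H2 at chr10:14878616-14878915 on the plus strand, EHMT1 at chr9:137618755-137619054 on the plus strand and EHMT2 at chr6:31897649-31897948 on the minus strand.
SUV39H1: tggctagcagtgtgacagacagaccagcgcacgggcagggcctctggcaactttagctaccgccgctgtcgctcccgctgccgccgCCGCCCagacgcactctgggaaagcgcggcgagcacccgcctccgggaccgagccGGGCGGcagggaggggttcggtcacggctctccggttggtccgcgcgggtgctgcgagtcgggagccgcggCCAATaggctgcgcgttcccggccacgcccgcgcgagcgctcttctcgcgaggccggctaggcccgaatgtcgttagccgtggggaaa
SUV39H2: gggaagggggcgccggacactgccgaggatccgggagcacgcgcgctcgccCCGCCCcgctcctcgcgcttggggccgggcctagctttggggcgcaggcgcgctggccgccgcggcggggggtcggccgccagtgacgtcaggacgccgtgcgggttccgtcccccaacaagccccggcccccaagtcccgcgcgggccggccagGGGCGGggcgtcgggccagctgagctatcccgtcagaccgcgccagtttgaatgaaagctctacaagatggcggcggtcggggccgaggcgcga
EHMT1: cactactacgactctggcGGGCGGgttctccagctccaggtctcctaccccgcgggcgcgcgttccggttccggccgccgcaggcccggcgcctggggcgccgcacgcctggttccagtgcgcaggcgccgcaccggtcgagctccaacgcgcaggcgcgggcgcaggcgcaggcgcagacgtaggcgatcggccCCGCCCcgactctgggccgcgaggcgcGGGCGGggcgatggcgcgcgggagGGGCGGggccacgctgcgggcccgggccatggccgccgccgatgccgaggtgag
EHMT2: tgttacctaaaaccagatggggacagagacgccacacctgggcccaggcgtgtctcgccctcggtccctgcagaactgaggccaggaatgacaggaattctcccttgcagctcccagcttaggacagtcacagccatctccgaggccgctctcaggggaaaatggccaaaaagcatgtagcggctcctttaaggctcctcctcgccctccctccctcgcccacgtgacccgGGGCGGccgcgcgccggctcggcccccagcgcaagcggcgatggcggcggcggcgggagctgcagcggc
SUV39H1 has a second RefSeq window, at the gene start (chrX:48695304-48695603), which holds none of the motifs and is not printed. The GC box stood in all 4 printed windows, 2 copies for SUV39H1, 2 for SUV39H2, 4 for EHMT1 and 1 for EHMT2, and 44.9% of the 34943 RefSeq promoter windows hold it. SUV39H1 also had 1 CCAAT, a word found in 34.6% of all windows. Over the 22 windows of the 10 genes, 9 genes had a GC box in at least 1 window, SETDB1 being the gene without one. The E2F word TTTCCCGC, present in 1.62% of all windows, occurred only in one window of ZNF644. The words TTTGGCGC and CCGGAAGT and the NRF1 motif, held by 0.65%, 4.11% and 1.23% of all windows, were in none of the 22. These matches describe the letters of the windows and are not binding sites.

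The SUV39H genes changed most, and they did so in HT29 under VXN. SUV39H1 (chromosome X, 48695554 to 48709016) was at 29.9 and 31.2 CPM in the HT29 DMSO libraries and at 6.73 and 7.96 CPM under VXN. The groups were far apart, and the fall was 4.18-fold, a log2 fold change of -2.06 ± 0.085 (SE, edgeR adjusted p = 1.07e-31). Of all genes tested, 3.40% had a lower log2 fold change in this comparison. SUV39H2 (chromosome 10, 14878866 to 14904315), the paralog that makes the same mark, went from 30.0 and 31.6 to 11.9 and 11.6 CPM. It fell 2.62-fold, with a log2 fold change of -1.39 ± 0.077 (SE, edgeR adjusted p = 4.02e-25). Its 3′ part overlaps DCLRE1C on the genome, which fell by 0.29 ± 0.067 on the log2 scale, and since the kit does not mark strand, reads of the overlap cannot be assigned to either gene with certainty. SUV39H1 fell further than SUV39H2, as the ratio of their raw counts within a library, which no scaling affects, went from 0.999 and 0.985 to 0.566 and 0.689.

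In t-hESC, at the same dose of VXN, SUV39H1 was not called and SUV39H2 fell slightly. SUV39H1 was at 24.5 and 25.8 CPM under DMSO, 24.5 and 24.2 under VXN and 24.3 and 23.6 under BIX. The VXN libraries overlapped the DMSO libraries, with a log2 fold change of -0.049 (95% interval -0.19 to 0.097), and under BIX the value was -0.070 (-0.22 to 0.081). SUV39H2 was at 34.3 and 34.2 CPM under DMSO, 30.7 and 29.4 under VXN and 28.1 and 31.6 under BIX, so both DMSO libraries lay above the others. It fell by 0.19 ± 0.068 under VXN (SE, edgeR adjusted p = 0.0277) and by 0.20 ± 0.070 under BIX (adjusted p = 0.0258). Both calls were lost in DESeq2 and without either t-hESC DMSO library, the VXN call also without t-hESC VXN replicate 2 and the BIX call without t-hESC BIX replicate 1. Over all alternatives the adjusted p ranged from 0.0125 to 0.19 for VXN and from 0.00838 to 0.42 for BIX. The VXN effect differed between the lines for both genes, by -2.01 ± 0.12 for SUV39H1 (edgeR adjusted p = 9.73e-24) and by -1.20 ± 0.10 for SUV39H2 (7.78e-16), each the HT29 effect minus the t-hESC effect on the log2 scale.

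**Figure D1:**
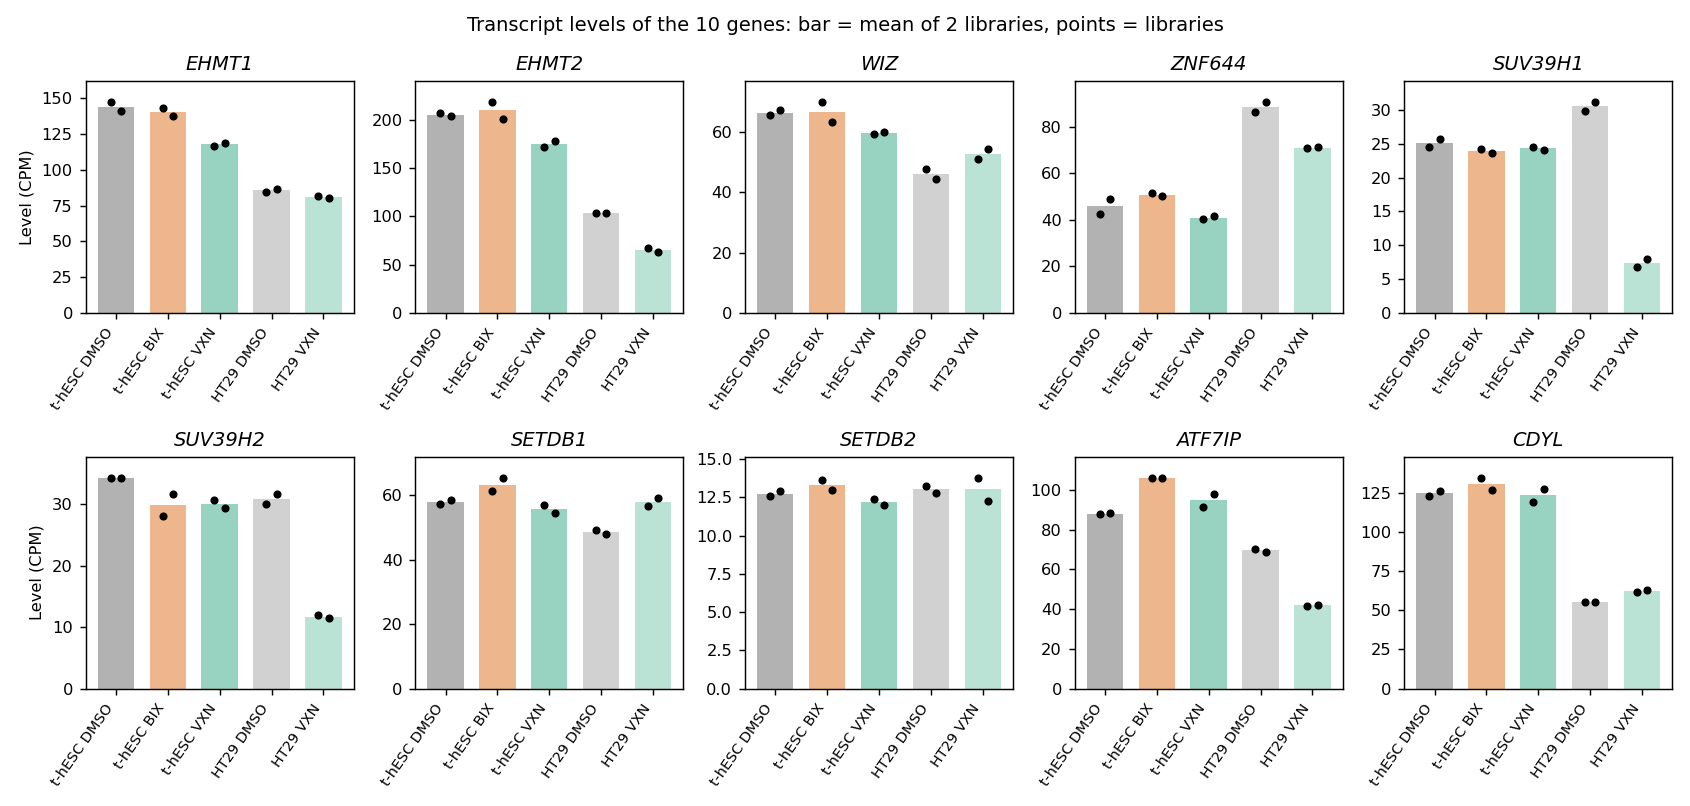
Level of each gene in CPM (vertical axes start at 0 and differ between genes) for the 5 groups; bars are means of 2 libraries and points are the libraries. SUV39H1 stands at 6.73 and 7.96 CPM in HT29 under VXN and at 23.6 CPM or more in every other library.

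Of the G9a and GLP genes, both fell under VXN in t-hESC, and EHMT2 alone was called in HT29. EHMT1 (chromosome 9, 137619005 to 137836127) was at 147 and 141 CPM in t-hESC under DMSO, 117 and 119 under VXN and 143 and 138 under BIX. It fell by 0.29 ± 0.040 on the log2 scale under VXN (SE, edgeR adjusted p = 1.55e-08), with no overlap of the libraries, and the BIX libraries overlapped those of DMSO, at -0.037 (95% interval -0.11 to 0.041). In HT29 it stood at 84.9 and 86.9 CPM under DMSO and at 82.0 and 80.1 under VXN, a log2 fold change of -0.082 ± 0.042 that was not called (adjusted p = 0.0891). This last value was -0.12 with size factors of the DESeq2 type, -0.12 without a count filter and -0.14 when HT29 was fitted alone, and all 3 were called, within a range of adjusted p from 0.000455 to 0.315 over the alternatives. It was also called without t-hESC BIX replicate 2, with an adjusted p of 0.0362.

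In t-hESC under DMSO, EHMT2 (chromosome 6, 31879759 to 31897698) stood at 207 and 204 CPM, with 172 and 178 under VXN and 219 and 201 under BIX. It fell by 0.23 ± 0.037 under VXN (SE, edgeR adjusted p = 1.31e-06), and under BIX its libraries lay on both sides of DMSO, with a log2 fold change of 0.035 (95% interval -0.038 to 0.11). In HT29 it fell from 104 and 104 CPM under DMSO to 67.3 and 63.3 under VXN, 1.59-fold, or 0.67 ± 0.044 on the log2 scale (SE, adjusted p = 2.57e-21). The effect was larger in HT29 than in t-hESC by 0.44 ± 0.058 (adjusted p = 2.16e-09), whereas that on EHMT1 was smaller in HT29, by 0.21 ± 0.058 (adjusted p = 0.00224, and 0.0597 in DESeq2, the top of a range from 0.00069). The EHMT2 to EHMT1 count ratio was 1.22 and 1.19 in HT29 under DMSO and 0.820 and 0.790 under VXN, with no overlap. In the 6 t-hESC libraries it stayed between 1.40 and 1.53.

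EHMT2 shares its 3′ end with the antisense gene EHMT2-AS1 (chromosome 6, 31877808 to 31884204), and without strand the reads of the overlap cannot be told apart. EHMT2-AS1 was counted at 25.8 ± 0.62 CPM in HT29 under DMSO and 17.8 ± 0.23 under VXN (SD, n = 2). It fell by 0.54 ± 0.072 on the log2 scale (SE, edgeR adjusted p = 1.18e-09). In t-hESC under VXN it fell by 0.25 ± 0.057 (adjusted p = 0.000398), and under BIX its log2 fold change was -0.028 ± 0.058. The counts of both genes thus fell together under VXN. Their ratio was between 3.78 and 4.23 in 8 libraries and 3.81 and 3.52 in HT29 under VXN.

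**Figure D2:**
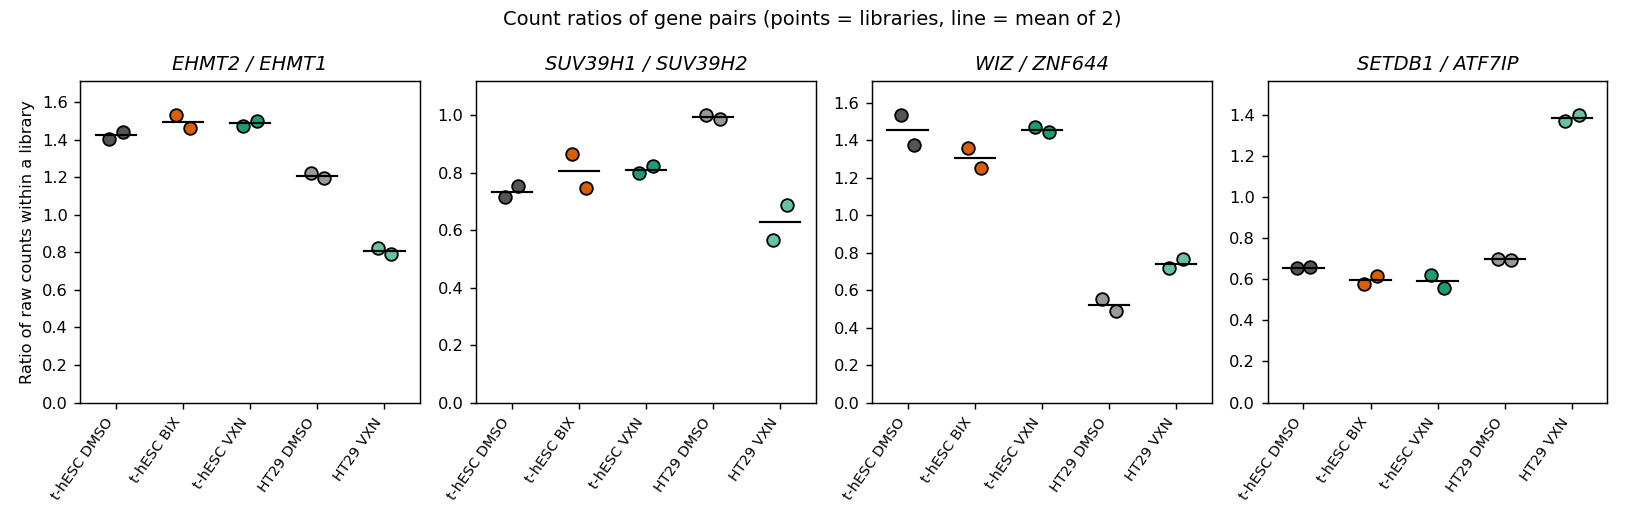
Ratios of raw counts of 2 genes within each library (points; line, mean of 2) for the 5 groups; the ratios are free of library scaling and hold the lengths of both genes. The EHMT2 to EHMT1 ratio is 0.820 and 0.790 in HT29 under VXN against 1.22 and 1.19 under DMSO, and SETDB1 to ATF7IP goes from 0.699 and 0.696 to 1.37 and 1.40.

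The zinc finger partners of the dimer went opposite ways in HT29. WIZ (chromosome 19, 15419978 to 15449956) rose there under VXN, from 47.6 and 44.2 to 51.1 and 54.3 CPM, by 0.20 ± 0.053 on the log2 scale (SE, edgeR adjusted p = 0.00102). In t-hESC it fell from 65.5 and 67.4 CPM under DMSO to 59.1 and 60.0 under VXN, by 0.16 ± 0.053 (adjusted p = 0.0163), while the BIX libraries, at 69.9 and 63.2 CPM, spanned those of DMSO. The 2 effects differed by 0.36 ± 0.075 (adjusted p = 5.7e-05). The rise in HT29 was not called in DESeq2 (0.0573) nor without HT29 DMSO replicate 2 (0.0529) or HT29 VXN replicate 2 (0.0544), the range over the alternatives being 0.000383 to 0.0573. The fall in t-hESC was not called in DESeq2 (0.111) nor without t-hESC DMSO replicate 2 (0.125) or t-hESC VXN replicate 1 (0.0772), in a range from 0.00499 to 0.125.

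ZNF644 (chromosome 1, 90915304 to 91022035) fell under VXN in both lines. In HT29 it went from 86.4 and 90.6 to 71.0 and 71.1 CPM, by 0.32 ± 0.046 on the log2 scale (SE, edgeR adjusted p = 1.38e-08). In t-hESC the levels were 42.7 and 49.0 CPM under DMSO, 40.2 and 41.5 under VXN and 51.3 and 50.3 under BIX. The DMSO replicates of this gene lay apart, and the t-hESC fall of 0.17 ± 0.060 (adjusted p = 0.024) rested on the higher of them: without t-hESC DMSO replicate 2 the log2 fold change was -0.069 (adjusted p = 0.583, in a range from 0.00199 to 0.583). It was also not called without t-hESC VXN replicate 1 (0.134), with only the groups compared (0.0588) or in DESeq2 (0.117). Under BIX the value was 0.14 ± 0.059 and not called (adjusted p = 0.0717). It was called with size factors of the DESeq2 type (0.045), at a minimum count of 50 (0.0499) and, at 0.24, without t-hESC DMSO replicate 2. Over the alternatives the BIX value ran from 0.049 to 0.24. Between the lines the VXN effects on ZNF644 differed by -0.15 ± 0.076, which was not called (adjusted p = 0.119, in a range from 0.0146 to 0.63), but it was called at -0.25 without t-hESC DMSO replicate 2 and with size factors of the DESeq2 type (0.042).

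SETDB1 and its cofactor gene parted in HT29. SETDB1 (chromosome 1, 150926263 to 150964737) rose under VXN from 49.2 and 48.0 to 56.6 and 59.1 CPM, by 0.25 ± 0.050 on the log2 scale (SE, edgeR adjusted p = 1.61e-05). ATF7IP (chromosome 12, 14365682 to 14502930) fell from 70.5 and 69.0 to 41.4 and 42.3 CPM, 1.67-fold or by 0.74 ± 0.049 (adjusted p = 3.55e-21). The SETDB1 to ATF7IP count ratio was 0.699 and 0.696 in HT29 under DMSO and 1.37 and 1.40 under VXN, with no overlap. In the t-hESC libraries that ratio stayed between 0.557 and 0.661.

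In t-hESC, ATF7IP was the gene that rose under BIX. Its levels were 87.8 and 88.3 CPM under DMSO, 106 and 106 under BIX and 91.4 and 98.0 under VXN. The BIX libraries lay above all others of the line, with a log2 fold change of 0.27 ± 0.045 (SE, edgeR adjusted p = 2.34e-06, and at most 0.000355 over the alternatives). Under VXN the value was 0.11 ± 0.044 and not called (adjusted p = 0.0621), though it was called at a minimum count of 50 (0.0413). It was also called at 0.16 without t-hESC VXN replicate 1 and at 0.11 without t-hESC BIX replicate 1. Over the alternatives the value ran from 0.055 to 0.16. The VXN effect on ATF7IP differed between the lines, by -0.84 ± 0.066 (HT29 effect minus t-hESC effect, adjusted p = 1.52e-17). SETDB1 in t-hESC was at 57.3 and 58.4 CPM under DMSO, 61.2 and 65.4 under BIX and 56.8 and 54.6 under VXN. Its log2 fold change was -0.054 ± 0.053 under VXN, and under BIX it was 0.13 ± 0.053 and not called (adjusted p = 0.0732). The BIX value was called with size factors of the DESeq2 type (0.0433), at a minimum count of 50 (0.047) and, at 0.18, without t-hESC BIX replicate 1. Over the alternatives it ran from 0.079 to 0.18.

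SETDB2 (chromosome 13, 49444274 to 49495003) varied least of the 10 genes. Its level lay between 12.0 and 13.8 CPM in all 10 libraries, and its highest group mean was 1.09 times its lowest. None of the comparisons called it, and the 95% intervals of its log2 fold change were -0.13 to 0.26 for BIX, -0.26 to 0.13 for VXN in t-hESC and -0.17 to 0.18 for VXN in HT29. RefSeq has a read-through transcript that joins it to PHF11. PHF11 itself rose in HT29 under VXN by 1.11 ± 0.11 on the log2 scale (SE, edgeR adjusted p = 2.4e-14).

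CDYL (chromosome 6, 4706138 to 4955544) differed more between the lines than under any compound. It was at 123 and 126 CPM in t-hESC under DMSO, 135 and 127 under BIX, and 119 and 128 under VXN, so the VXN libraries lay on both sides of DMSO. In HT29 it was at 55.3 and 55.2 CPM under DMSO and at 61.8 and 63.0 under VXN. That rise was 0.17 ± 0.048 on the log2 scale (SE, edgeR adjusted p = 0.00149, and 0.0535 in DESeq2, the top of a range from 0.000519). The VXN effect was higher in HT29 than in t-hESC by 0.19 ± 0.064 (adjusted p = 0.0121), a call that was lost in DESeq2 (0.155), without a count filter (0.0816) and with size factors of the DESeq2 type (0.0508), in a range from 0.0024. It was also not called without HT29 VXN replicate 2 (0.0594), t-hESC DMSO replicate 2 (0.0582) or t-hESC VXN replicate 1 (0.0967).

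**Figure D3:**
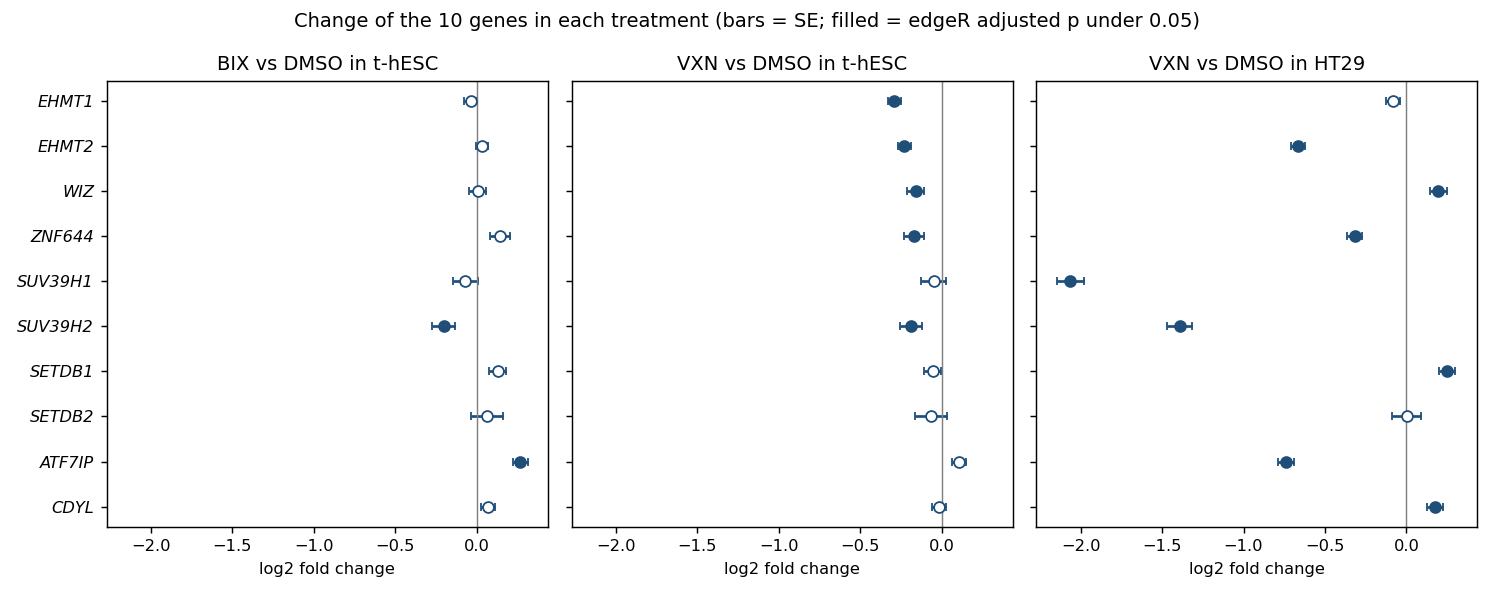
Log2 fold change of each gene (horizontal axis, bars SE, same scale in all panels) for BIX and VXN in t-hESC and VXN in HT29; filled points have an edgeR adjusted p under 0.05. SUV39H1 at -2.06 and SUV39H2 at -1.39 in HT29 lie outside the span of all other points.

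Counted together, 2 of the 10 genes were called under BIX in t-hESC, ATF7IP higher and SUV39H2 lower, where 23.1% of all genes tested were called, 10.9% higher and 12.2% lower. The median log2 fold change of the 10 was 0.049 there and that of all genes 0.0015. Under VXN in t-hESC 5 of 10 were called, all lower, against 29.0% of all genes called, 14.6% lower and 14.5% higher. In DESeq2 the count under VXN in t-hESC was 2 of 10, with 4086 of all genes called against 6531 in edgeR. That under BIX was 1 of 10, with 3158 against 5199. Under VXN in t-hESC the median log2 fold change of the 10 was -0.11, and that of all genes tested was 0.0036. In HT29 under VXN 8 of 10 were called, 5 lower and 3 higher, against 60.0% of all genes called, 26.9% lower and 33.0% higher. The median of the 10 was -0.20 there and that of all genes 0.055. EHMT1 and SETDB2 were the genes not called in HT29. DESeq2 called 6 of the 10 in HT29 under VXN, and 10947 of all genes against 13490 in edgeR. The rises of WIZ and CDYL were not called there (DESeq2 adjusted p of 0.0573 and 0.0535).

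The authors' deposited table for VXN in HT29 called 5 of the 10, namely SUV39H1, SUV39H2, EHMT2, ATF7IP and ZNF644, all lower as here. In the authors' deposited table WIZ, SETDB1 and CDYL had adjusted p of 0.312, 0.11 and 0.351, and were not called. For VXN in t-hESC the authors' deposited table called EHMT1 (0.0458) and not EHMT2 (0.194). For BIX the authors' deposited table called none of the 10, with ATF7IP at an adjusted p of 0.239. The share of all genes that the authors' calls cover was not computed, so these counts have no background beside them. DESeq2 run here called 1 member under BIX and 2 under VXN in t-hESC, where it called 3158 and 4086 of all genes.

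The VXN and BIX libraries of t-hESC were also set against each other, at doses of 10 µM and 1 µM, so compound and dose cannot be told apart. Of the 10 genes 6 were lower under VXN and none higher, where 22.7% of all genes were called and 11.2% were lower. EHMT2, EHMT1 and ZNF644 were lower by 0.26 ± 0.039, 0.25 ± 0.041 and 0.31 ± 0.062 on the log2 scale (SE, edgeR adjusted p of 1.63e-07, 1.91e-06 and 6.35e-05). For WIZ, SETDB1 and ATF7IP the differences were -0.16 ± 0.055, -0.18 ± 0.054 and -0.16 ± 0.045 (adjusted p of 0.0232, 0.00925 and 0.00492). The WIZ call was lost in DESeq2, without a count filter, with only the groups compared and without t-hESC BIX replicate 1 or either t-hESC VXN library (adjusted p from 0.00468 to 0.45 over the alternatives), that of SETDB1 without t-hESC BIX replicate 2 or t-hESC VXN replicate 2 (0.00304 to 0.136), and that of ATF7IP without t-hESC VXN replicate 1 (0.00108 to 0.14). CDYL, at -0.085 ± 0.043, was called without t-hESC VXN replicate 2 only (0.0374, in a range up to 0.712). SUV39H1 and SUV39H2 were at 0.021 (95% interval -0.13 to 0.18) and 0.015 (-0.13 to 0.16).

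**Figure D4:**
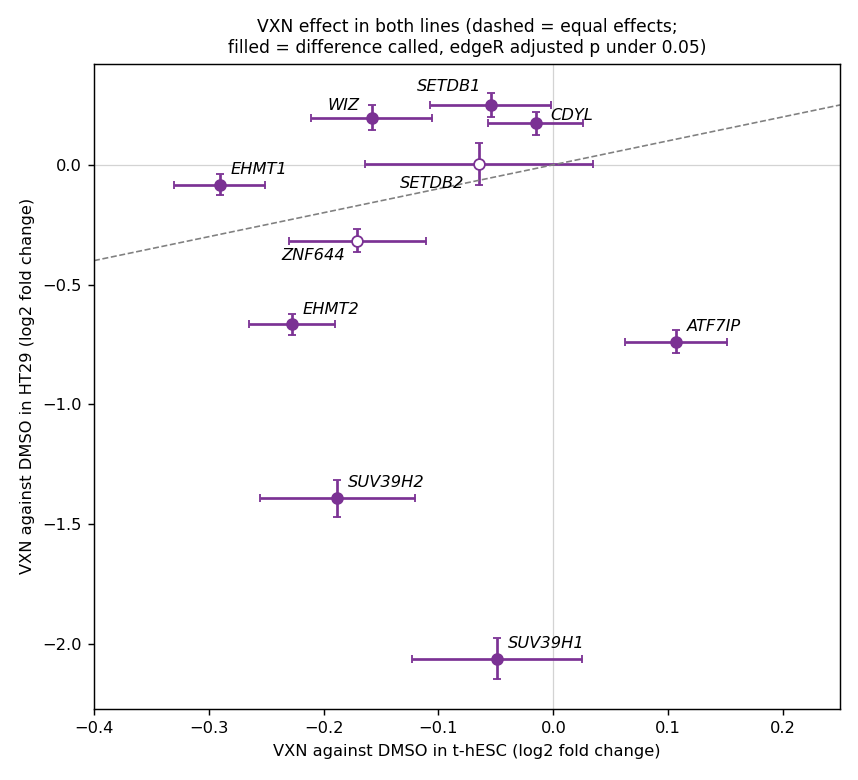
VXN effect on each gene in t-hESC (horizontal axis) and in HT29 (vertical axis) as log2 fold changes with SE; the axes differ in scale, the dashed line marks equal effects, and filled points have a called difference between the lines (edgeR adjusted p under 0.05). SUV39H1, SUV39H2, ATF7IP and EHMT2 lie below the line, and WIZ, SETDB1, CDYL and EHMT1 above it.

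The VXN effect differed between the lines for 8 of the 10 genes, where 43.2% of all genes tested were called, 20.3% lower and 22.9% higher. EHMT2, SUV39H1, SUV39H2 and ATF7IP had the lower effect in HT29. EHMT1, WIZ, SETDB1 and CDYL had the higher one, by 0.30 ± 0.073 for SETDB1 (SE, edgeR adjusted p = 0.000373). DESeq2 called 6 of the 10, and 7508 of all genes against 9722 in edgeR. EHMT1 and CDYL were not called there (DESeq2 adjusted p of 0.0597 and 0.155).

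The lines already differed under DMSO. Of the 10 genes 7 were lower in HT29 and 2 higher, where 84.4% of all genes were called, 45.6% lower and 38.9% higher, so this count says little about the 10. CDYL and EHMT2 were 2.26-fold and 1.98-fold lower in HT29, with log2 differences of -1.17 ± 0.044 and -0.98 ± 0.038 (SE, edgeR adjusted p of 1.39e-34 and 9.65e-34). EHMT1 was lower by 0.75 ± 0.040, WIZ by 0.53 ± 0.052, ATF7IP by 0.34 ± 0.044 and SETDB1 by 0.25 ± 0.051. ZNF644 went the other way, 1.92-fold higher in HT29 (adjusted p = 1.55e-26), and SUV39H1 was 1.21-fold higher (adjusted p = 0.000147). The WIZ to ZNF644 count ratio was thus 0.551 and 0.488 in HT29 and 1.53 and 1.37 in t-hESC under DMSO. SUV39H2, lower by 0.15 ± 0.063 (adjusted p = 0.0226), lost its call in DESeq2, without a count filter (0.107) and without HT29 DMSO replicate 1 or t-hESC DMSO replicate 1 (0.000146 to 0.182 over the alternatives).

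By group means, EHMT1 ran in the order t-hESC DMSO, t-hESC BIX, t-hESC VXN, HT29 DMSO and HT29 VXN, and the libraries of the first and second overlapped. EHMT2, WIZ, ATF7IP and CDYL also had all 3 t-hESC groups above both HT29 groups. The t-hESC BIX and DMSO libraries overlapped for EHMT2 and WIZ, and those of t-hESC DMSO and VXN for CDYL. ZNF644 had both HT29 groups on top with no overlap of neighbours. For SUV39H1, HT29 DMSO was highest and HT29 VXN lowest, a span of 4.16-fold, and the 3 t-hESC groups between them overlapped as neighbours. SUV39H2 spanned 2.92-fold, with t-hESC DMSO highest and HT29 VXN lowest, and the HT29 DMSO, t-hESC VXN and t-hESC BIX libraries between them overlapped. SETDB1 spanned only 1.30-fold from t-hESC BIX to HT29 DMSO.

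Over the 5 group means, the genes most like EHMT1 among 12913 genes with at least 4 CPM were KPTN, SIRT3 and ATPAF2, at root mean square distances of 0.022, 0.030 and 0.043 in centred log2 CPM (0.5 CPM added). Those most like EHMT2 were UBA1, PLS3 and MESTIT1, at 0.043, 0.047 and 0.052. KPTN, for example, was at 23.9, 23.3 and 19.2 CPM in t-hESC under DMSO, BIX and VXN, and at 13.7 and 13.5 CPM in HT29 under DMSO and VXN. UBA1 was at 922, 987 and 818 CPM in the same t-hESC groups and at 472 and 320 in HT29. These matches are a description over 5 points that share their libraries.

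Genes of DNA replication fell beside the SUV39H genes in HT29. All 20 genes of a list for G1/S and DNA replication were lower under VXN, with a median log2 fold change of -2.25. Of all genes tested 26.9% were lower and 33.0% higher there, at a median of 0.055. Among the 20 were the helicase genes MCM4 at -2.62 ± 0.040 and MCM2 at -2.48 ± 0.041 and the ribonucleotide reductase gene RRM2 at -2.70 ± 0.044 (SE, edgeR adjusted p of 5.32e-56, 4.63e-54 and 4.36e-54). In t-hESC 18 of the 20 were lower under VXN and 18 under BIX, with medians of -0.42 and -0.29. Of all genes 14.6% were lower under VXN and 12.2% under BIX, at medians of 0.0036 and 0.0015. In these comparisons SUV39H1 was not called. SUV39H2 was lower by 0.19 ± 0.068 under VXN and 0.20 ± 0.070 under BIX (SE, edgeR adjusted p of 0.0277 and 0.0258), calls that were lost in DESeq2. The part of cell cycle activity in the fall of the SUV39H genes was not tested. In bulk RNA, fewer cells of a kind and less RNA per cell cannot be told apart. Neuronal markers summed to 11.4 and 13.3 CPM in HT29 under DMSO and to 44.6 and 44.3 under VXN, and MAP2 made up nearly all of the difference, at 1.30 ± 0.092 and 32.7 ± 0.047 CPM (SD, n = 2). TUBB3 was at 11.0 ± 1.3 and 11.7 ± 0.28 CPM, and STMN2 and DCX had no more than 3 counts. In t-hESC the same sum lay between 197 and 234 CPM in all groups. The sum of fibroblast markers in t-hESC was 662 and 662 CPM under DMSO, 826 and 785 under BIX and 934 and 934 under VXN, with LUM and DCN at no more than 3 counts. Most of it was THY1, at 587 ± 2.3, 693 ± 19 and 857 ± 1.4 CPM in that order (SD, n = 2). COL1A1 was at 33.2 ± 0.65, 42.5 ± 6.8 and 37.6 ± 0.60 CPM, COL1A2 at 41.3 ± 2.8, 69.7 ± 2.9 and 39.1 ± 0.82, and COL3A1 under 1 CPM, so these markers did not move alike. The part of these markers in the results was not tested.

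Most genes of the readers of the mark and of the DNA methyltransferases fell beside the SUV39H genes in HT29. Of 7 such genes 6 were lower under VXN and none higher, at a median of -0.93, where 26.9% of all genes were lower and 33.0% higher, at a median of 0.055. DNMT3A was the gene not called, at -0.021 ± 0.073 (SE, edgeR adjusted p = 0.86). DNMT3B was low in HT29, at 8.46 ± 1.1 CPM under DMSO and 4.57 ± 0.21 under VXN (SD, n = 2). UHRF1, which links methylated H3K9 to DNA methylation upkeep, fell from 92.3 ± 2.4 to 16.1 ± 0.014 CPM (SD, n = 2; edgeR adjusted p = 2.25e-45). The HP1 beta gene CBX1 and the maintenance methyltransferase gene DNMT1 fell by 1.34 ± 0.037 and 1.35 ± 0.042 on the log2 scale (SE, adjusted p of 2.06e-41 and 1.72e-38). In t-hESC 5 of the 7 were lower under VXN and none higher, where 14.6% of all genes were lower and 14.5% higher. DNMT3B, which is also one of the pluripotency markers used here, was at -0.45 ± 0.030, UHRF1 at -0.68 ± 0.053 and CBX1 at -0.17 ± 0.032. Under BIX 4 were lower and CBX5, the HP1 alpha gene, was higher by 0.30 ± 0.034. Of all genes 12.2% were lower and 10.9% higher under BIX.

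Of 11 H3K9 demethylase genes 7 were higher, 2 (KDM1A and KDM3B) lower and 2 (PHF2 and KDM4D) not called under VXN in HT29. Their median was 0.22, beside 0.055 over all genes tested, of which 33.0% were higher and 26.9% lower. KDM7A, whose product removes methyl groups from H3K9 and H3K27, rose by 1.48 ± 0.066 and PHF8 by 0.57 ± 0.049 (SE, edgeR adjusted p of 6.48e-30 and 1.61e-16), while KDM1A fell by 0.62 ± 0.036 (2.06e-24). Under BIX in t-hESC 6 of the 11 were higher and 1 lower, where 10.9% of all genes were higher and 12.2% lower. KDM4B was at 0.34 ± 0.051, KDM3B at 0.25 ± 0.038 and JMJD1C at 0.25 ± 0.039. Under VXN in t-hESC 2 were higher and 2 lower, where 14.5% of all genes were higher and 14.6% lower, so this count says little about the 11. KDM1A was at -0.31 ± 0.032 there, JMJD1C at 0.17 ± 0.038 and PHF8 at 0.24 ± 0.058.

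Other writers and partners of the writers were mixed. Of 10 such genes 4 were lower and 1 higher under VXN in HT29, where 26.9% of all genes were lower and 33.0% higher. Their median was -0.24, beside 0.055 over all genes, or -0.16 without ZNF462 and ZNF518B, which had at most 2 counts in any HT29 library. MECOM, which encodes a PR domain protein, went from 106 ± 0.50 to 49.0 ± 2.0 CPM (SD, n = 2; edgeR adjusted p = 7.99e-31), and TRIM28 and UBE2E1 fell by 0.23 ± 0.031 and 0.34 ± 0.046 on the log2 scale. ZNF462 and ZNF518B, zinc finger genes whose products bind the G9a dimer, were at 34.1 ± 1.6 and 34.7 ± 0.56 CPM in t-hESC under DMSO. Under BIX in t-hESC 4 of the 10 were higher and 2 lower, where 10.9% of all genes were higher and 12.2% lower. ZNF462 was at 0.50 ± 0.066, PRDM2 at 0.29 ± 0.065 and UBE2E1 at -0.25 ± 0.046. Under VXN in t-hESC 3 were higher and 1 lower, where 14.5% of all genes were higher and 14.6% lower. TRIM28 was at -0.19 ± 0.029 there, ZNF518B at 0.20 ± 0.064 and PRDM2 at 0.18 ± 0.064.

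In the HUSH complex, which brings SETDB1 to chromatin, PPHLN1 was lower in each treatment. It fell by 0.15 ± 0.054 under BIX (SE, edgeR adjusted p = 0.0309). The falls under VXN were 0.29 ± 0.053 in t-hESC and 0.53 ± 0.050 in HT29. Calls of list genes were not checked under the alternatives. TASOR was higher under BIX (0.22 ± 0.055) and lower under VXN in HT29 (-0.29 ± 0.043). Of its 4 genes 2 were higher and 2 lower under VXN in HT29, at a median of -0.094. Genes that supply the methyl donor S-adenosylmethionine also split there, 3 higher and 4 lower of 7, at a median of -0.22. Of all genes 33.0% were higher and 26.9% lower, at a median of 0.055. The folate enzyme gene MTHFD1 fell by 1.34 ± 0.043, MAT2B, the regulatory subunit of the donor's synthase, by 0.69 ± 0.042, and the methionine synthase gene MTR by 0.90 ± 0.062 (SE, edgeR adjusted p of 1.12e-37, 2.19e-23 and 1.88e-20). In t-hESC, where 10.9% of all genes were higher and 12.2% lower under BIX and 14.5% and 14.6% under VXN, 1 HUSH gene was higher and 1 lower under BIX, and 1 lower under VXN. Of the 7 methyl donor genes 2 were higher and 4 lower under BIX, and 1 higher and 3 lower under VXN. MTHFD1 was among the lower ones, by 0.24 ± 0.039 under BIX and 0.51 ± 0.039 under VXN.

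**Figure D5:**
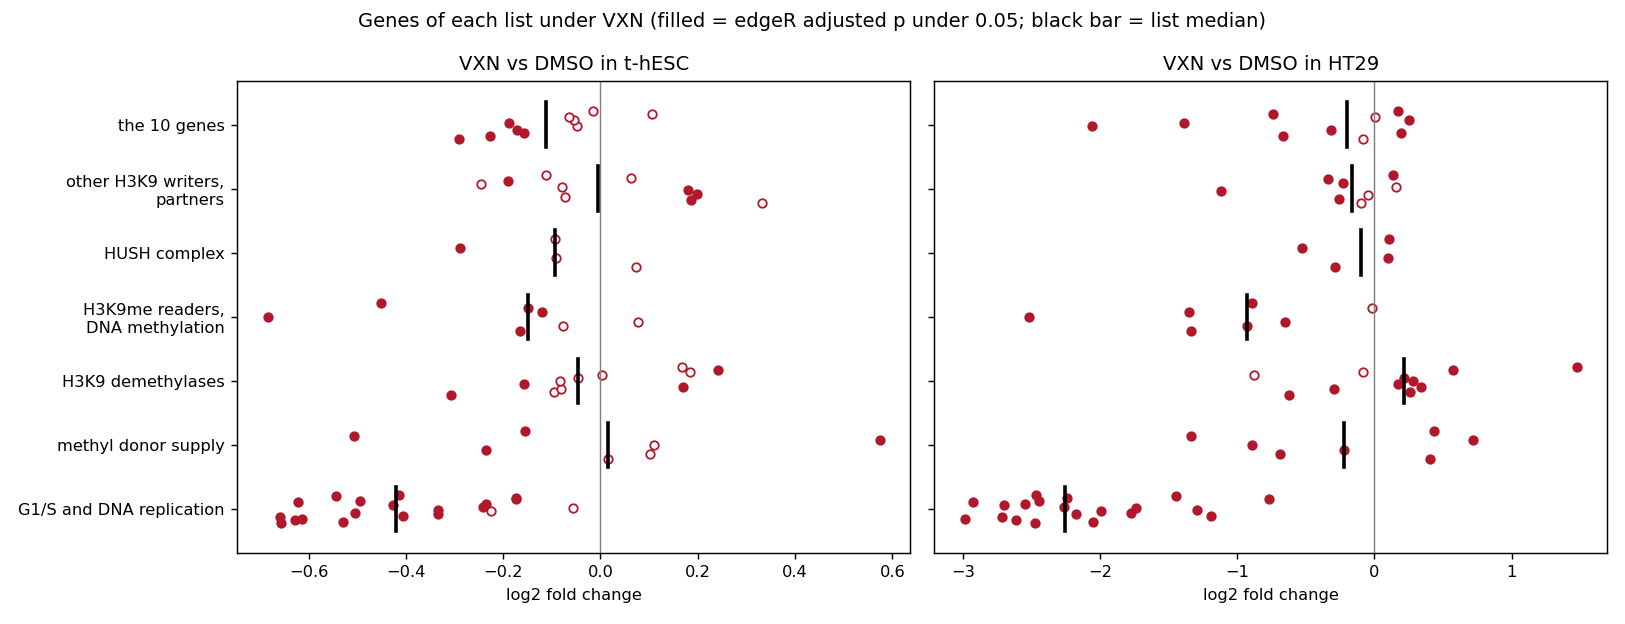
Log2 fold changes under VXN of the 10 genes and of 6 lists of related genes in t-hESC (left) and HT29 (right); the horizontal scales differ, filled points have an edgeR adjusted p under 0.05, black bars are list medians, and ZNF462 and ZNF518B are left out on the right for low counts. In HT29 the replication list lies lowest, with a median of -2.25, and in t-hESC its median is -0.42.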

How the data were processed

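Gene counts were used as deposited, for 10 libraries. Builds GRCh38 and hg38 stand in the submitters' processing notes, as do the tools DESeq2 1.34.0, STAR, FastQC 0.11.9 and fastp 0.20.1, with no role for any of them. The counter and the gene annotation: not given in the sources used here. TruSeq RNA v2 libraries do not mark strand. The authors' log2 fold changes and adjusted p-values, in their deposited tables, served only for their calls. Another 4 columns of the count table matched no sample and stayed unused, as did 1181 repeat families.

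All 10 libraries entered one model in edgeR 4.0.16 (R 4.3.3) with TMM, filterByExpr at a minimum count of 10, the robust quasi-likelihood F test and Benjamini-Hochberg adjustment over 22495 genes. Residual degrees of freedom were 5 and prior ones 56.7. Genes with an adjusted p under 0.05 are called higher or lower. The SE is the log2 fold change over the root of F, and 95% intervals rest on it. Members and lists were chosen with earlier results of these data known. All 10 members are named, and from each list up to 3 genes with the smallest p, in part only. Floors cover counting error only. The alternatives were other size factors (RLE and upper quartile), DESeq2 1.42.0, no count filter or a minimum of 50, a fit of just the groups at hand, replicate number as blocking term, and each library left out in turn. Levels per length were not computed, for want of transcript lengths.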

Additional observations from a re-analysis of the deposited data

Results flagged for a closer look

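The effect of VXN differed between HT29 and t-hESC, by the interaction contrast in edgeR, for 8 of the 10 genes. The differences, as the HT29 effect minus the t-hESC effect on the log2 scale, were -2.01 for SUV39H1, -1.20 for SUV39H2, -0.84 for ATF7IP, -0.44 for EHMT2, 0.36 for WIZ, 0.30 for SETDB1, 0.21 for EHMT1 and 0.19 for CDYL. Of all genes tested, 43.2% had a called difference. Those of EHMT1 and CDYL were not called in DESeq2.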

How the results depend on the processing

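Of 1020 values of single genes under the alternatives 965 stayed on their side of the threshold, 39 lost and 16 gained a call, and none turned its direction with a call. These values cover the members only, and the calls of list genes were not checked in this way. The number of members called under BIX in t-hESC was 2, but 4 with size factors of the DESeq2 type or a minimum count of 50 and 1 in DESeq2. Under VXN in t-hESC it was 5, and 2 in DESeq2. DESeq2 also called fewer of all genes: 3158 against 5199 for BIX, 4086 against 6531 for VXN in t-hESC and 2982 against 5110 for VXN against BIX. With each library left out in turn, members called ran from 1 to 2 for BIX, 2 to 6 for VXN in t-hESC, 7 to 9 for VXN in HT29, 4 to 6 for VXN against BIX, 7 to 8 for the difference between the lines and 8 to 9 for the lines under DMSO. The low value for BIX came without t-hESC DMSO replicate 1, and that for VXN in t-hESC without t-hESC DMSO replicate 2. The genes called ran from 3872 to 5404, 4856 to 6734, 12200 to 13786, 3651 to 4958, 8723 to 9897 and 18303 to 19603 in the same order. Upper-quartile factors moved the median of all genes between the lines under DMSO from -0.12 to -0.23. Same-numbered replicates did not deviate together (correlations from -0.084 to 0.012 between groups), and a replicate block gave 5101, 6442, 13426, 5003, 9659 and 18948 called genes in that order, where no member's call changed. The order of the genes by level per length was not run. Groups of 2 libraries limit all of these values, and small changes near 0.2 on the log2 scale most.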
